A study of Rattus norvegicus with 48 samples.

Results

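Ace encodes angiotensin-converting enzyme, and its kidney transcript was followed over 4 rat strains and 3 time points. Its members are the 35 probe sets, of 92401 in the deposited table, whose platform annotation gives Ace as their only gene symbol. They were combined into 1 gene value among 7997 genes. Ace was chosen on its measured log2 values in these arrays, which differ between the strains, so its own levels and differences are given as a description, without a test. Tests are given for other genes.

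The data are 48 exon arrays of kidney RNA from male rats, labelled as 12 weeks old in the sample record and 12 to 14 weeks in the treatment protocol. Strains F, L, FL and LF were each sampled at days 0, 7 and 10, with 4 arrays per strain and day. Rats of the day 7 and day 10 groups received indole-3-carbinol (I3C), a plant compound that switches on the Cyp1a1 promoter, by gavage at 100 mg per kg and day. Day 0 rats received vegetable oil, so every day 0 group carries the gavage and the vehicle.

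The labels do not spell out the strain names. As background on the study from outside the labels, F and L are the Fischer and Lewis rat backgrounds, all 4 strains carry a transgene driven by the Cyp1a1 promoter, and FL and LF are reciprocal exchanges of a chromosome 10 segment in which Ace lies. FL is thus F with the L segment and LF is L with the F segment. I3C switches the transgene on through a promoter that is active in liver above all, so the kidney is exposed to a systemic rise in angiotensin and blood pressure. The ends of the exchanged segment were not used here. The protocol names 8 rats per group against 4 arrays, with no word on pooling, so each p-value reflects how far arrays of a group differ, which may be technical in part.

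Angiotensinogen, the substrate made from the gene Agt, is the source of angiotensin I. Angiotensin-converting enzyme, a zinc peptidase anchored in the cell membrane, removes a dipeptide to give angiotensin II, which acts on the AT1 and AT2 receptors, and it also breaks down bradykinin and the peptide Ac-SDKP. In the kidney it sits on the brush border of the proximal tubule and on endothelium.

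The promoter of Ace is shown because the exchanged segment carries the gene with its own regulatory sequence. It is the RefSeq sequence of the GRCr8 reference assembly, not the allele of any of the 4 strains, and covers the 250 bases before the annotated start at chr10:91409879-91410128 on the plus strand. Capitals mark the letters GGGCGG (GC box) and TATAA (TATA box), searched on both strands.
Ace: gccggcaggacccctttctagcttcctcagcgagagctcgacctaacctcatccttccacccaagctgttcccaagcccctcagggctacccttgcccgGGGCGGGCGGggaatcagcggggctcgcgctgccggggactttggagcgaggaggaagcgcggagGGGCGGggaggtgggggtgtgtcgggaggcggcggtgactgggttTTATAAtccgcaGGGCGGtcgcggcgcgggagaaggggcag
GGGCGG begins at 151, 147, 86 and 29 bases before the start, and the first 2 of these overlap. At least 1 copy is present in 30.5% of 33465 promoters of the same length, and at least 4 copies in 3.67%. TATAA begins 40 bases before the start and its reverse complement 41 bases before it, in overlapping letters, and 24% of promoters hold the motif. Of the Ace bases 69.2% are G or C, against a median of 51.2% over all promoters.

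In the labelled tissue the kidney genes Umod (uromodulin of the thick limb), Lrp2 (megalin of the proximal tubule) and Slc34a1 (a proximal tubule phosphate transporter) were among the brightest genes, with Lrp2 at the 99.7th percentile of mean level. Ace stood at the 58.6th percentile. Array medians over all probe sets ranged from 6.03 to 6.61 on the log2 scale. Around the group means, Ace followed the array median with a Pearson r of 0.724 over 48 arrays, where the median gene had 0.381. Over the 12 group means that r was 0.0846. The part of array level in single arrays was not tested, and several of the results that it moves are given with the level removed.

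Ace was high in the strains with the F segment, F and LF, and low in those with the L segment, L and FL, at every day. In F at day 0 the log2 gene values of replicates 1 to 4 were 7.58, 7.61, 7.42 and 7.61 (mean 7.55 ± 0.09, SD, n = 4), the highest group of the series. In F at day 7 they were 7.21, 7.47, 7.09 and 6.80 (7.14 ± 0.28), and in F at day 10 they were 7.32, 7.04, 7.19 and 6.41 (6.99 ± 0.40). The day 0 values of F lay close together, while those of day 10 spread widely, with replicate 4 the lowest.

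In LF the day 0 values were 7.04, 7.31, 6.99 and 7.05 (7.10 ± 0.14). At day 7 LF had 6.64, 6.71, 6.41 and 6.49 (6.56 ± 0.13), and at day 10 it had 6.93, 6.65, 6.60 and 6.58 (6.69 ± 0.16). LF had a lower mean than F on each of the 3 days. The arrays of LF lay below those of F at days 0 and 7 and overlapped them at day 10, where F replicate 4 was below all 4 LF arrays.

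In FL the values were 6.28, 5.99, 6.08 and 6.47 at day 0 (6.20 ± 0.22), 6.31, 6.27, 5.84 and 6.02 at day 7 (6.11 ± 0.22), and 6.59, 6.17, 6.07 and 5.72 at day 10 (6.14 ± 0.36). In L they were 6.04, 5.77, 6.15 and 5.74 at day 0 (5.92 ± 0.20), 6.06, 5.83, 6.10 and 5.80 at day 7 (5.94 ± 0.15), and 5.73, 6.04, 5.71 and 6.08 at day 10 (5.89 ± 0.20). The 6 groups of L and FL overlapped one another at all days.

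**Figure D1:**
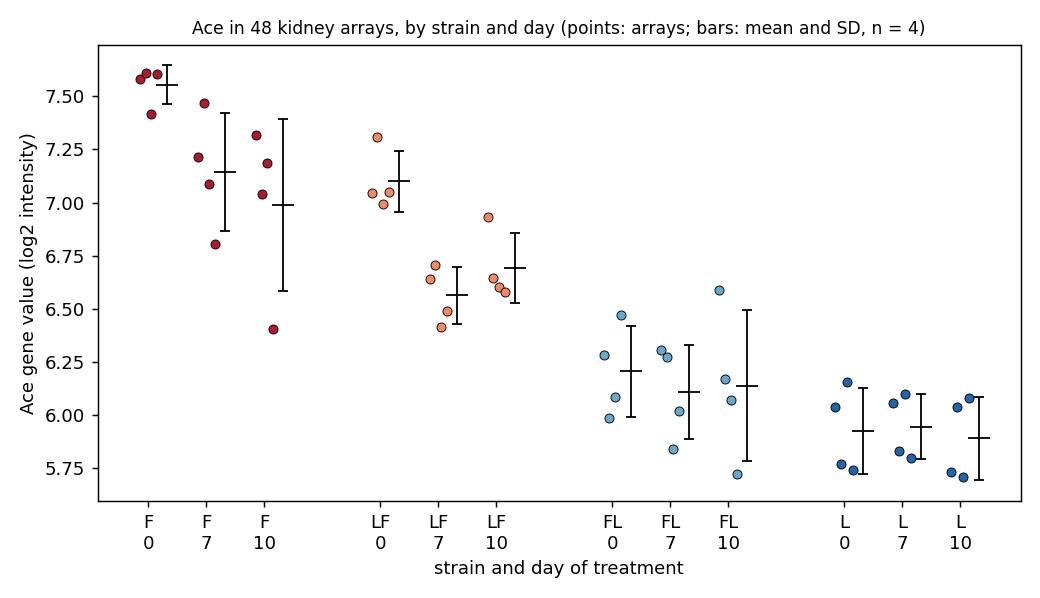
Ace gene value (log2 intensity, vertical axis) in each of the 48 arrays, by strain and day of treatment, with the mean and SD of 4 arrays beside the points. Groups of F and LF have means of 6.56 to 7.55 and groups of L and FL means of 5.89 to 6.20.

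From highest to lowest the groups ran F day 0, F day 7, LF day 0, F day 10, LF day 10, LF day 7, FL day 0, FL day 10, FL day 7, L day 7, L day 0 and L day 10. Each group overlapped the next in this order in single arrays. The largest gaps between neighbouring means were 0.41 (F day 0 to F day 7) and 0.36 (LF day 7 to FL day 0). The pooled within-group SD was 0.23. The 24 arrays of F and LF ranged from 6.41 to 7.61 (median 7.04) and the 24 of L and FL from 5.71 to 6.59 (median 6.05). Of the F and LF arrays 20 lay above every L and FL array. With each array's median subtracted, or after quantile normalization over arrays, all 24 did.

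The whole-strain comparison asks how far the 2 parents differ. Ace was 1.31 ± 0.09 higher in F than in L on the log2 scale (limma estimate and SE, mean of the 3 days), or 2.48-fold. By size this was rank 19 of 7997 genes. In this comparison limma called 7.03% of genes (562) at an adjusted p under 0.05. On days 0, 7 and 10 the difference was 1.63, 1.20 and 1.10, each with an SE of 0.16. The 12 arrays of F (6.41 to 7.61) did not overlap the 12 of L (5.71 to 6.15).

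Placing the L segment in the F background went with less Ace, and placing the F segment in the L background went with more. FL minus F was -1.08 ± 0.09, 2.11-fold lower, which was rank 3 by size where limma called 0.35% of genes (28, or 76 with replicate number as a block). LF minus L was 0.87 ± 0.09, 1.82-fold higher, at rank 9 where 0.675% of genes (54) were called. FL and F share no array with LF and L, so the exchange was measured from both sides on separate arrays, though the choice of Ace used both. At day 0 FL minus F was -1.35 and LF minus L was 1.18, and at day 10 they were -0.85 and 0.80, each with an SE of 0.16.

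The segment contrast sets L and FL against F and LF, and the background contrast sets F and FL against L and LF, each as a mean over the 3 days. In the segment contrast Ace was -0.97 ± 0.07, or 1.96-fold lower in L and FL. It held rank 3 by size among 7997 genes, after Havcr1 (-1.32 ± 0.19), the kidney injury molecule of damaged tubules, and Hmox1 (-1.19 ± 0.36), heme oxygenase. Limma called 0.763% of genes (61, or 113 with replicate number as a block), Havcr1 among them (adjusted p = 3.43e-05) and Hmox1 not (adjusted p = 0.132). At day 0 the means of Havcr1 were 4.56 in F, 5.05 in LF, 4.63 in FL and 4.89 in L. Those of Hmox1 were 5.05, 4.56, 4.79 and 4.81 in the same order. Before I3C neither gene thus split by segment as Ace did. The Ace difference was smaller in the background contrast, where F and FL were 0.34 ± 0.07 higher than L and LF, at rank 347 where 17.3% of genes (1385) were called. FL minus L was 0.28, 0.16 and 0.25 at days 0, 7 and 10, and LF minus F was -0.45, -0.58 and -0.30 on the same days, each with an SE of 0.16. Single arrays moved 3 of these 6 by over 1.5 times. FL minus L at day 7 was 0.10 without FL day 7 replicate 1 and 0.25 without replicate 3, and at day 10 it was 0.10 without FL day 10 replicate 1 and 0.39 without replicate 4. LF minus F at day 10 was -0.19 without F day 10 replicate 1 and -0.49 without replicate 4.

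Most Ace probe sets shared this pattern. F minus L ran from -0.14 to 2.08 over the 35 probe sets with a median of 1.43, and 26 probe sets exceeded 1. A difference above 0.5 was seen in 29, and in all 29 FL was lower than F and LF higher than L. Over the 12 group means each of these 29 had a Pearson r of 0.837 to 0.99 with the mean of the other probe sets. The values that chose Ace are these same arrays, so the shared direction is a description.

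The largest difference was in probe set 6534753, whose 12 F arrays averaged 7.35 (5.98 to 8.25) and whose 12 L arrays averaged 5.27 (3.15 to 6.42). Its LF arrays ran from 6.04 to 7.30 and its FL arrays from 4.53 to 6.78. Even here F and L overlapped in single arrays. Arrays of F and L separated fully in 8 of the 29 probe sets. In probe set 6195635 the F arrays ran from 8.18 to 9.30 and the L arrays from 6.21 to 7.46, with a difference of 1.72 ± 0.13.

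The other 6 probe sets had an F minus L difference of 0.41 or less, and F and L arrays overlapped in all 6. Just above the 0.5 line stood probe set 6319402, at 0.62 ± 0.08 and a mean level of 8.81. Just under it stood 6100594, at 0.41 ± 0.08 and a mean level of 9.08, the brightest of the 35. The dimmest, 6255205, had a mean level of 3.71, a within-group SD of 1.24 and a difference of 0.14 ± 0.48. Probe set 5971445 was at a mid-range level of 7.32 and still differed by only -0.02 ± 0.11. For these 6 the r with the mean of the other probe sets ran from -0.358 to 0.679. Over all 35 the Spearman rho of level and difference was -0.132, and the 6 included the brightest and the dimmest. Their position on the transcript was not used here.

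**Figure D2:**
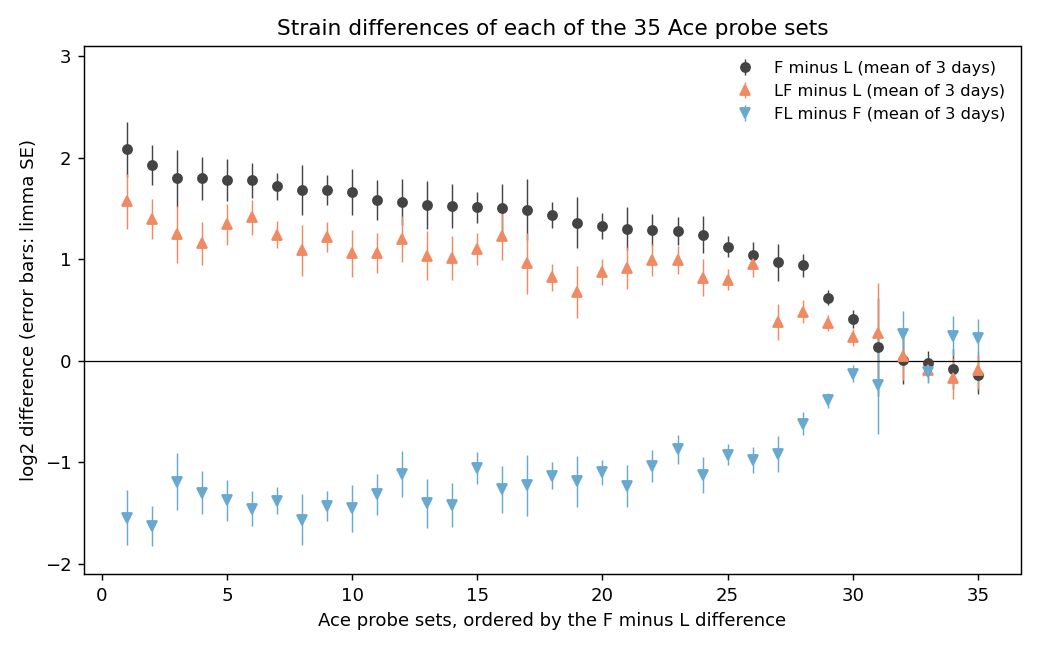
Log2 differences (vertical axis, mean of 3 days with limma SE) of each of the 35 Ace probe sets, ordered by F minus L on the horizontal axis. F minus L and LF minus L lie above 0 and FL minus F below 0 for the first 29 probe sets, and the last 6 lie at 0.41 or less in F minus L.

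Treatment went with lower Ace in the 2 strains where Ace was high. Over F and LF, Ace differed from day 0 by -0.47 ± 0.11 at day 7 and -0.49 ± 0.11 at day 10, each about 1.4-fold lower (1.39 and 1.40). Over L and FL it differed by -0.04 ± 0.11 and -0.05 ± 0.11, and the day 7 value turned to 0.08 with array medians subtracted. Single arrays turned these small values too: the day 10 value was 0.02 without FL day 10 replicate 4 and -0.13 without FL day 10 replicate 1, and the day 7 value was 0.01 without FL day 0 replicate 4 or FL day 7 replicate 3. By strain the differences at days 7 and 10 were -0.41 and -0.57 in F, -0.54 and -0.41 in LF, 0.02 and -0.04 in L, and -0.10 and -0.07 in FL, each with an SE of 0.16. With array medians subtracted the day 7 values were -0.34 in LF, 0.03 in FL and 0.13 in L. In F at day 10 and in LF at both days the treated arrays lay entirely below the day 0 arrays, and in F at day 7 the ranges overlapped. In F at day 10 the difference was -0.37 without replicate 4, which moved it by over 1.5 times. In FL at day 10 it was -0.22 without FL day 10 replicate 1, 0.07 without FL day 10 replicate 4 and 0.02 without FL day 0 replicate 4.

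The response of F and LF was lower than that of L and FL by -0.44 ± 0.16 at day 7 and -0.44 ± 0.16 at day 10. Subtracting array medians left it at -0.45 at day 7. The contrasts that pool 2 strains, and their difference, were added after the data were seen. At day 10, 33 of the 35 probe sets were below day 0 in F and LF (median -0.49), and 22 of 35 in L and FL (median -0.07). In bulk RNA, fewer cells of a type and less RNA per cell cannot be told apart.

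Averaged over the 4 strains, Ace differed by -0.26 ± 0.08 at day 7, where limma called 4.98% of genes (398, or 894 with replicate number as a block), and by -0.27 ± 0.08 at day 10, where it called 2.3% (184). The day 7 value was -0.15 after quantile normalization or with array medians subtracted. Array medians averaged 6.38, 6.28 and 6.37 at days 0, 7 and 10.

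Havcr1 rose in the strains in which Ace was lower after treatment. Over F and LF it was 2.61 ± 0.33 above day 0 at day 7 (limma adjusted p = 1.66e-06, 3.81% of genes called) and 3.31 ± 0.33 at day 10 (adjusted p = 1.34e-08, 1.73% called). Over L and FL it was 0.43 ± 0.33 at day 7 (adjusted p = 0.71, 0.075% called) and rose by 1.68 ± 0.33 at day 10 (adjusted p = 0.0126, 0.125% called). By strain it was 2.95 higher at day 7 and 2.75 at day 10 in F, and 2.27 and 3.87 in LF. In L the differences were 0.15 and 1.52 and in FL 0.71 and 1.83 (SE 0.47 for each). The day 7 response of Havcr1 was 2.18 ± 0.47 larger in F and LF than in L and FL (limma adjusted p = 0.0469, where 0.075% of genes were called), and the day 10 response differed by 1.63 ± 0.47 (adjusted p = 0.602, 0.0375% called). In the array with the lowest Ace of F, day 10 replicate 4 at 6.41, Havcr1 was at 7.71 and the array median at 6.06. Around the group means, with array medians subtracted, the Pearson r of Ace and Havcr1 was -0.332 over 48 arrays, where both values of a point come from 1 library. The part of tubular injury in the Ace values was not tested.

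**Figure D3:**
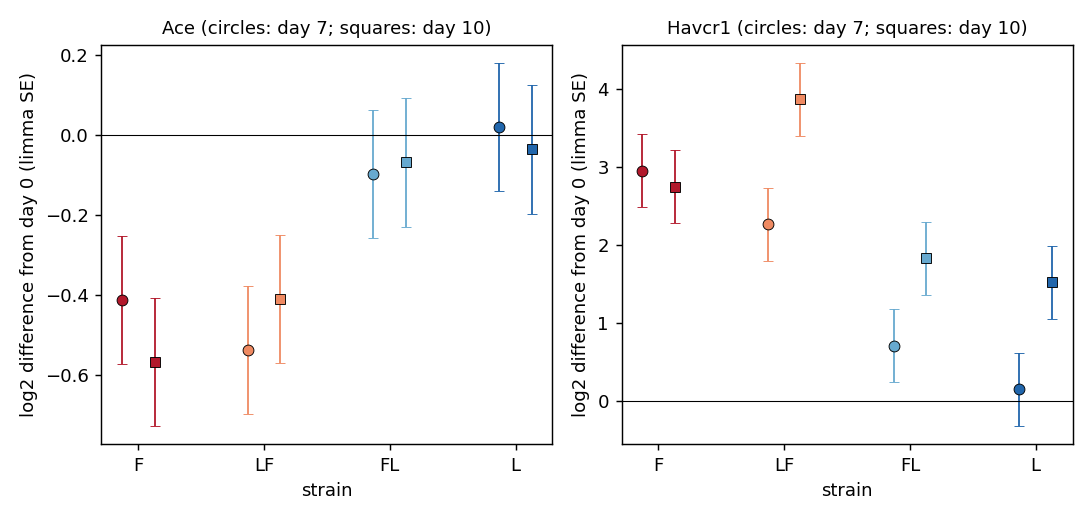
Log2 difference from day 0 (vertical axes, limma SE) of Ace and of Havcr1 in each strain, at day 7 (circles) and day 10 (squares). Ace lies at -0.41 to -0.57 in F and LF and at -0.10 to 0.02 in FL and L, where the day 7 value of FL turns to 0.03 with array medians subtracted, while Havcr1 lies between 2.27 and 3.87 in F and LF.

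Cyp1a1, the I3C-induced gene that reports exposure, was 2.43 ± 0.41 higher in F at day 7 (limma adjusted p = 0.000911, 0.688% of genes called) and 2.62 ± 0.41 at day 10 (adjusted p = 0.00078, 0.375% called). In LF it was 0.49 and 0.51 higher (adjusted p = 0.522 and 1, where 2.44% and 1.04% of genes were called), and Ace there stood at -0.54 and -0.41. In L it was 1.36 and 1.20 higher and in FL 0.55 and 1.85, with adjusted p-values from 0.0756 to 0.864 (0% of genes called in L on either day, and 0.15% and 0.025% in FL).

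Markers of the cells that hold the enzyme were set beside Ace. Of 14 proximal tubule markers 11 were measured. In F minus L, Cubn (cubilin, 0.32) and Slc5a2 (the glucose transporter SGLT2, 0.29) were higher and Slc22a6 (an organic anion transporter, -0.17) was lower. These are 2 and 1 of 11 where 2.49% of all genes were higher and 4.54% lower. In the segment contrast limma called 0 of 11 (1 at an unadjusted p under 0.05). Among all genes it called 0.763% there (8.48% at an unadjusted p under 0.05). At day 7, Lrp2 (-0.15), Slc5a2 (-0.24) and Slco1a1 (an organic anion transporter, -0.41) fell, 3 of 11 where 3.88% of all genes were lower. At day 10 limma called 0 of 11 (4 at an unadjusted p under 0.05), where it called 2.3% of all genes (9.7% at an unadjusted p under 0.05). Over F and LF, where Ace was lower after treatment, Lrp2 (-0.25 ± 0.05) and Slc5a2 (-0.47 ± 0.10) fell at day 7, 2 of 11 where 3.81% of genes were called, and Slc5a2 (-0.51 ± 0.10) fell at day 10, 1 of 11 where 1.73% were. The median of the 11 was -0.13 and -0.10 on these days. Over L and FL limma called 0 of 11 on either day, where it called 0.075% and 0.125% of all genes. At an unadjusted p under 0.05 there were 1 and 0 of 11, where 7.77% and 6.46% of all genes were. The medians of the 11 over L and FL were -0.03 and 0.05. The response of F and LF was below that of L and FL for 9 of 11 at day 7 and for 11 of 11 at day 10, where the difference ran from -0.58 to -0.04. The share of all genes in that direction was not counted. Limma called 0 of the 11 differences on either day, where it called 0.075% and 0.0375% of all genes. At an unadjusted p under 0.05 there were 2 and 1 of 11, where 4.83% and 5.25% of all genes were. The mean log2 level of the 11 ran from 10.87 to 10.98 over F day 0 arrays and from 10.55 to 10.98 over F day 10 arrays, and from 10.85 to 11.08 over LF day 0 arrays and from 10.64 to 10.84 over LF day 7 arrays. Their part in the Ace values was not tested.

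Of 13 endothelial markers 6 were measured, and Pecam1, Cdh5, Tek, Kdr, Tie1, Eng and Vwf were not analysed here. In F minus L, Emcn (endomucin) was lower by -0.30 ± 0.08, 1 of 6 where 4.54% of all genes were lower. In the segment contrast limma called 0 of 6 (0 at an unadjusted p under 0.05), where it called 0.763% of all genes. At day 7 Emcn (-0.32) and Plvap (a protein of fenestrated capillaries, -0.27) fell, 2 of 6 where 3.88% of all genes were lower. The mean level of the 6 ran from 7.58 to 7.67 over F day 0 arrays and from 7.60 to 7.90 over L day 0 arrays, and these ranges overlapped. Over F and LF limma called 0 of 6 at day 7 and at day 10, where it called 3.81% and 1.73% of all genes. At an unadjusted p under 0.05 there were 2 and 1 of 6, where 16.2% and 9.55% of all genes were. The part of these markers in the Ace values was not tested. The measured members stood between the 55.4th (Nos3) and 86.8th (Plvap) percentile of level. Markers of podocytes (5 measured), macrophages (5) and the distal nephron (6) also had 0 calls in the segment contrast (1, 2 and 0 at an unadjusted p under 0.05). In that contrast 0.763% of all genes were called and 8.48% had an unadjusted p under 0.05. In F minus L 3 of 5 macrophage markers were lower, Adgre1, Fcgr3a and C1qa, where 4.54% of all genes were. At day 7 limma called 5 of 6 distal nephron markers lower, where 3.88% of all genes were, Calb1 (calbindin) the furthest at -0.90. Adgre1 (-0.38) and Fcgr3a (-0.61) of the macrophages and Podxl (-0.21) of the podocytes were also lower at that day. At day 10 the calls were 3 of 6 distal nephron markers, Calb1 (-0.84), Kcnj1 (-0.25) and Aqp2 (-0.61), where 2.3% of genes were called. Over F and LF, Calb1 fell by 1.14 at day 7 and by 1.19 at day 10. Its means over the 4 strains were -0.90 and -0.84, so it was lower over L and FL too. The part of these markers in the Ace values was not tested.

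Of the 23 other renin-angiotensin genes listed, 15 were measured and 8 were not analysed here, among them Agtr1a (the main AT1 receptor of rodents). In F minus L, 1 of 15 was higher, where 2.49% of all genes were, and 1 was lower, where 4.54% were. The median of the 15 was -0.04 and that of all genes -0.02. With replicate number as a block 5 of 15 were called, where that fit called 10.2% of all genes. Leaving out L day 0 replicate 4 gave 4 calls, and leaving out F day 7 replicate 1, F day 10 replicate 2, L day 0 replicate 1 or L day 10 replicate 2 gave 1.

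Agt, the substrate gene upstream of the enzyme, ran opposite to Ace between the parents. Its 12 F arrays lay between 6.94 and 7.53 and its 12 L arrays between 7.78 and 8.39, without overlap, and F minus L was -1.0 ± 0.08 (2.0-fold lower, limma adjusted p = 1.33e-12). The strain means were 7.17 in F, 7.44 in FL, 8.01 in LF and 8.17 in L. Most of this difference followed the background, since F and FL were -0.78 ± 0.06 lower than L and LF. With the segment, L and FL were 0.22 ± 0.06 higher than F and LF, which was not called (adjusted p = 0.0598) but was with replicate number as a block (adjusted p = 0.00363). Leaving out any of 11 arrays also made it a call (adjusted p 0.0244 to 0.0495). FL minus F of Agt was 0.27 ± 0.08 (adjusted p = 0.16). That difference was called after quantile normalization (adjusted p = 0.000385) and with array medians subtracted (adjusted p = 0.00062).

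Mme encodes neprilysin, a peptidase that makes angiotensin 1-7 and degrades several peptides. It was 0.28 ± 0.08 higher in F than in L (adjusted p = 0.028), and it was not called in FL minus F or LF minus L. In 6 of 48 fits with 1 array left out, its F minus L adjusted p rose to between 0.0512 and 0.0739. The limma adjusted p of Mme was 0.0812 with the mean of probe sets and 0.0704 with the compared groups fitted alone. Agtr1b, the second AT1 receptor gene of rodents, differed by -0.03 ± 0.17 between F and L.

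In the exchange comparisons FL minus F and LF minus L and in the segment contrast, 0 of 15 renin-angiotensin genes were called by limma. Among all genes it called 0.35%, 0.675% and 0.763% in these contrasts. At an unadjusted p under 0.05 there were 3, 1 and 3 of 15, where 8.07%, 6.9% and 8.48% of all genes were. With replicate number as a block 1 was called in FL minus F and 1 in the segment contrast. That fit called 0.95% and 1.41% of all genes. Quantile normalization gave 1 and 2, where 0.925% and 2.24% of all genes were called. The differences of the 15 in the segment contrast ran from -0.09 to 0.22, where Ace was at -0.97. In the background contrast Mme was higher in F and FL and 5 were lower, namely Agt, Rnpep (aminopeptidase B, -0.26), Prep (prolyl endopeptidase, -0.18), Nln (neurolysin, -0.23) and Nr3c2 (the mineralocorticoid receptor, -0.22). Among all genes 4.29% were higher and 13% lower in this contrast.

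**Figure D4:**
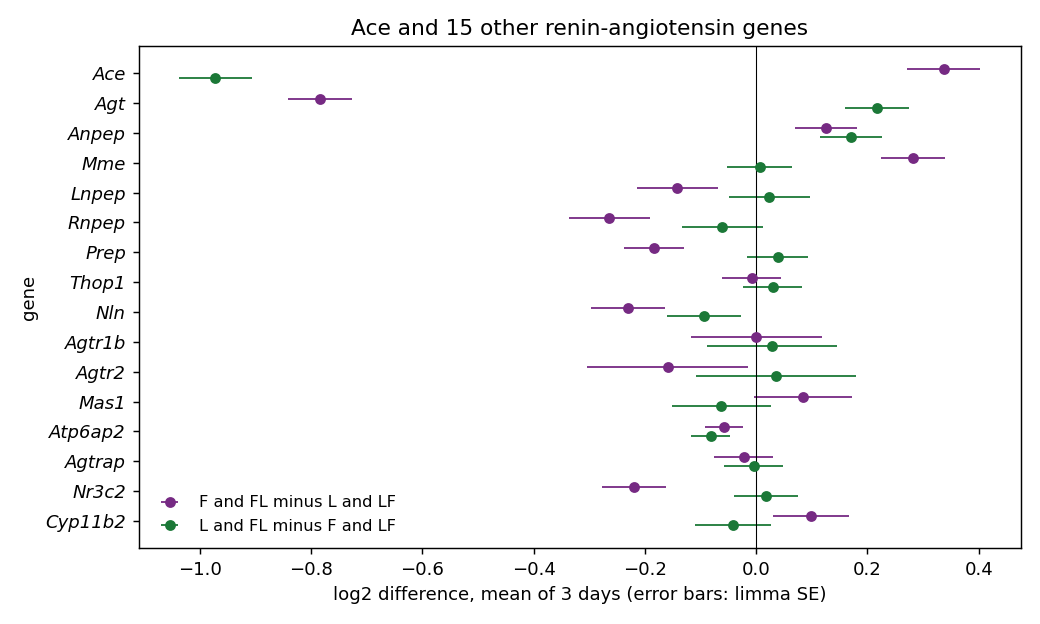
Log2 differences (horizontal axis, mean of 3 days with limma SE) of Ace and the 15 other measured renin-angiotensin genes by background (F and FL minus L and LF) and by segment (L and FL minus F and LF). Ace stands at -0.97 by segment, and the others lie between -0.09 and 0.22, while Agt stands at -0.78 by background.

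At day 7 Anpep (aminopeptidase N, which trims angiotensin III, -0.23 ± 0.07, adjusted p = 0.0328), Mme (-0.26 ± 0.07, adjusted p = 0.0204) and Nr3c2 (-0.30 ± 0.07, adjusted p = 0.00642) fell, 3 of 15 where 3.88% of all genes were lower, and the median of the 15 was -0.11 against -0.03 for all genes. With array medians subtracted only Nr3c2 of these passed, and Anpep lost its call in 14 of 48 fits with 1 array left out (adjusted p 0.0508 to 0.0704). At day 10 limma called 0 of 15 (2 at an unadjusted p under 0.05). Among all genes it called 2.3% at that day (9.7% at an unadjusted p under 0.05). With replicate number as a block, or without F day 10 replicate 1 or LF day 0 replicate 1, 1 of 15 was called. Over F and LF, Nr3c2 fell by 0.41 ± 0.10 at day 7 (adjusted p = 0.0104) and by 0.38 ± 0.10 at day 10 (adjusted p = 0.034), and over L and FL it was at -0.20 and -0.05 (adjusted p = 0.629 and 0.994). The difference between these responses was -0.21 at day 7 and -0.33 ± 0.14 at day 10, neither of them called (adjusted p = 1 and 0.933).

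Angiotensin-converting enzyme also degrades kinins, so genes of that arm were set beside it. Of 13 listed 9 were measured. Klkb1, plasma prekallikrein, was 1.22 ± 0.09 higher in F than in L (2.32-fold, adjusted p = 1.09e-13), the only call among the 9 in that comparison, where 2.49% of all genes were higher. It followed the background (1.10 ± 0.06), as did Kng1 (kininogen, 0.18) and, with the opposite sign, Xpnpep1 (an aminopeptidase that cuts bradykinin, -0.17), 3 of 9 where 17.3% of genes were called. In the segment contrast, where 0.763% of genes were called, limma called 0 of 9 (0 at an unadjusted p under 0.05), and their differences ran from -0.11 to 0.07.

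The genes beside Ace on chromosome 10 did not share its size of difference. Gene order was taken from the RefSeq gene table of GRCr8, which places Ace 596th of 677 measured chromosome 10 genes. The 10 measured genes on each side run from Spata32 to Marchf10 and from Kcnh6 to Scn4a. Limma called 0 of these 20 in F minus L, FL minus F, LF minus L and the segment contrast (1, 2, 1 and 1 at an unadjusted p under 0.05), where it called 7.03%, 0.35%, 0.675% and 0.763% of all genes. In the segment contrast they ran from -0.09 to 0.10. The nearest, Marchf10 (a ubiquitin ligase) and Kcnh6 (a potassium channel), differed between F and L by -0.12 ± 0.07 and 0.01 ± 0.07. Next beyond Spata32, limma called Hexim1 lower in F than in L (-0.30 ± 0.07, adjusted p = 0.00723), and Acbd4 after it (-0.33 ± 0.09, adjusted p = 0.0168). Acbd4 was also lower in LF than in L (-0.45 ± 0.09, adjusted p = 0.00593). Next beyond Scn4a, Icam2 was lower in F than in L (-0.22 ± 0.06, adjusted p = 0.0182). Ddx5 after it was not called in these contrasts. In the background contrast 1 of 20 was lower, Gosr2 (a Golgi vesicle protein, -0.15), where 13% of all genes were lower, or 2 with replicate number as a block and 0 in 27 of 48 fits with 1 array left out.

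Of the 54 genes called in LF minus L 14 lay on chromosome 10, and of the 27 called in FL minus F with a known chromosome 4 did, where 8.49% of measured genes lie on it. Calls in the segment contrast fell on 8 of the 677 chromosome 10 genes (1.18%), with Ace counted, where 0.763% of all genes were called. The next after the 20 neighbours was Icam2 (an endothelial adhesion molecule), the 11th gene after Ace, 0.19 ± 0.04 higher in L and FL (adjusted p = 0.0237, or 0.157 with the mean of probe sets). The 19th was Cacng5, a calcium channel gamma subunit, 0.73 ± 0.10 higher in L and FL (adjusted p = 8.57e-06), opposite to Ace. On the other side lay Krt19 (a keratin), Igfbp4 (a binding protein of insulin-like growth factors), Slfn3 and Slfn9 (Schlafen genes), 64 to 174 genes before Ace, and Havcr1, 460 genes before it. Genes named here other than the 20 neighbours and Havcr1 were chosen after their values were seen.

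**Figure D5:**
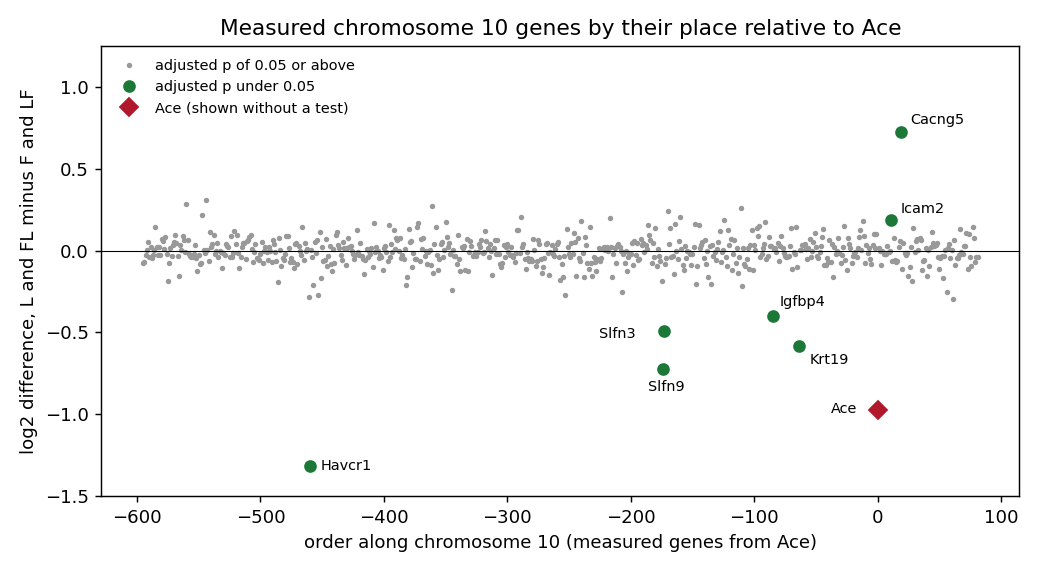
Log2 difference of L and FL against F and LF (vertical axis) for 677 measured chromosome 10 genes, by their order relative to Ace at 0 (horizontal axis, counted in measured genes). Ace lies at -0.97 and the 20 genes around it between -0.09 and 0.10, with Cacng5 at 0.73 and Havcr1 at -1.32.

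Over all genes, and with Ace counted although it was chosen on these values, 5 were called in both FL minus F and LF minus L, which is 17.9% of the 28 calls of the first and 9.26% of the 54 of the second. They were Ace and Cacng5, both on chromosome 10, and Clu, Gpnmb and S100a10, on chromosomes 15, 4 and 2. Each had opposite signs in the 2 comparisons, as means over the 3 days. Cacng5 differed by 0.87 ± 0.14 (FL minus F) and -0.59 ± 0.14 (LF minus L). Clu (clusterin, a secreted chaperone of injured tubules) differed by -0.54 ± 0.13 and 0.62 ± 0.13. Gpnmb (a glycoprotein of macrophages and injured epithelium) differed by -0.52 and 0.48, and S100a10 (an annexin partner) by -0.38 and 0.35. The count was 13 after quantile normalization, 12 with array medians subtracted and 3 with the mean of probe sets, and between 2 and 7 with 1 array left out. It was 2 without F day 10 replicate 1, L day 0 replicate 2, L day 10 replicate 4, FL day 7 replicate 3, FL day 10 replicate 1, LF day 0 replicate 1 or LF day 7 replicate 1, and 3 without any of 15 other arrays. Fitted on the compared groups alone, LF minus L of Cacng5 (adjusted p = 0.0638) and of Gpnmb (adjusted p = 0.0896) was no longer called, nor were FL minus F of Clu (adjusted p = 0.101) and both comparisons of S100a10 (adjusted p = 0.058 and 0.078).

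At day 0, before I3C, Clu was at 8.23 in F, 7.95 in FL, 8.47 in LF and 8.57 in L, so it did not show the order of Ace. By day 7 it was 0.82 ± 0.15 higher than day 0 in F and LF (adjusted p = 0.000701) and 0.11 ± 0.15 in L and FL (adjusted p = 0.832). The difference of these responses was 0.71 ± 0.22 (adjusted p = 0.451). Ace differed between the same strains at day 0 already, as the values by group show.

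Genes were also ranked by likeness to Ace, over 7000 genes with 3 or more probe sets. Over the 12 group means the highest Pearson r were those of Prdx3 (0.846), Ctsq (0.83), Slx1b (0.822), Tmem50b (0.768) and Tex261 (0.766), and the lowest those of Zbtb17 (-0.796), Sec16b (-0.783) and Smpd3 (-0.782). With array medians subtracted, the r of the first 5 were 0.764, 0.534, 0.619, 0.736 and 0.784 in that order. Those of the last 3 were then -0.459, -0.775 and -0.509. None of these genes lies on chromosome 10. Their group means spanned 0.21 to 0.45 on the log2 scale, against 1.67 for Ace, so the likeness is of shape and not of size. Over the deviations of the 48 arrays from their group means the highest were Smad5 (0.818), Cpd (0.781), Orc2 (0.779), Rfc1 (0.775) and Lmo7 (0.774). These 5 had an r of 0.825 to 0.932 with the array median, and their r with Ace was 0.408 to 0.589 once array medians were subtracted.

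By replicate number, which marks arrays whose file names share a start, F minus L in Ace was 1.43, 1.5, 1.24 and 1.07 for numbers 1 to 4. FL minus F was -0.98, -1.23, -1.23 and -0.87, and LF minus L was 0.93, 1.01, 0.68 and 0.84. Each exchange difference kept its direction within all 4 numbers. These are the values on which Ace was chosen, so the shared direction is a description. The day 10 difference over F and LF was -0.19, -0.62, -0.31 and -0.84, and over L and FL it was -0.00, 0.23, -0.23 and -0.20. Array medians averaged 6.45, 6.39, 6.32 and 6.22 for numbers 1 to 4. The mean deviation of Ace from its group means fell likewise, at 0.12, 0.05, -0.05 and -0.12.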

How the data were processed

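Kidney RNA was hybridised to 48 exon arrays, grouped by the strain and day in the labels (12 groups of 4). The deposited table holds log2 intensities, 1 for each probe set and array, which the authors made with RMA per the submitters' processing notes, which also name limma. Versions, settings and detection filters: not given in the sources used here. Array medians (6.03 to 6.61) were left as deposited. Precision is limited by how many arrays there are.

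Of 92401 probe sets 85406 had 1 symbol, 1803 several and 5192 none, and only the first were used. Of 8016 symbols 6113 were current in GRCr8, 1876 were replaced through a synonym, and 27 stayed as given. A gene value is the Tukey median polish of a gene's probe sets (7997 genes). These values were fitted with limma (3.58.1, in R 4.3.3) as 12 group means, with Benjamini-Hochberg adjustment over all genes and calls at an adjusted p under 0.05. The script was tested on simulated data. Figures used matplotlib.

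Ace and all gene lists were chosen with earlier results of these data known. Named genes are Ace, Agt, Agtr1b, the unmeasured Agtr1a, called renin-angiotensin and kinin members, the nearest neighbours, the 5 highest and 3 lowest by likeness, Cyp1a1 and Havcr1. Other genes named were chosen after their values were seen, as were contrasts that pool F with LF, or L with FL, within a day.

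Same-numbered arrays share a file-name start in the labels, which was taken to pair them. Their deviations correlated at a mean of 0.0948 over 264 pairs (lowest -0.301), against -0.0316 over 792 others. Alternatives were that block, quantile normalization, array median subtraction, the mean of probe sets, leaving out the dimmest 33.3% of genes, fitting the compared groups alone, and leaving out each array.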

Additional observations from a re-analysis of the deposited data

Results flagged for a closer look

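Ace in F at day 0 had 1 array apart from the others. Replicate 3 was at 7.42, and replicates 1, 2 and 4 were between 7.58 and 7.61. Its gap to the nearest array was 0.868 of the range of the group, and the whole range was narrow, with an SD of 0.09. Chance marks about 1 group in 20 by this rule, and 12 groups of Ace were examined.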

How the results depend on the processing

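All Ace differences kept within the spread between replicates over 221 values under other settings and 1872 with 1 array left out. With 1 array left out, F minus L ran from 1.27 to 1.37, FL minus F from -1.14 to -1.03, LF minus L from 0.84 to 0.89, and the segment contrast from -1.0 to -0.95. Calls over all genes depended on the setting more. With replicate number as a block they were 76 (FL minus F), 113 (segment contrast) and 894 (day 7). After quantile normalization they were 878 (F minus L), 74 (FL minus F), 121 (LF minus L), 179 (segment contrast), 603 (day 7) and 365 (day 10). With array medians subtracted they were 59, 118, 175 and 340 (FL minus F, LF minus L, segment contrast and day 10), and FL minus F fitted alone gave 9. Day 7 calls ran from 270 to 674 with 1 array left out, the highest without L day 0 replicate 4. Genes called in both exchanges numbered 13, 12 and 3 (quantile, array median, mean of probe sets) and 2 to 7 with 1 array left out. The cause was not tested.

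Renin-angiotensin calls in F minus L were 5 (block), 4 (quantile), 4 (array median) and 1 (groups alone), and 1 to 4 with 1 array left out. In FL minus F they were 1, 1 and 1 (block, quantile, array median). In the segment contrast they were 1, 2, 2 and 1 (block, quantile, array median, dimmest genes left out), and 0 to 1 with 1 array left out. At day 7 array median subtraction gave 1. At day 10 the block gave 1, quantile 2 and array median 2, and leaving out 1 array 0 to 1. Neighbour calls were 1 in F minus L (array median), and by background 2 (block), 0 (array median), 2 (mean of probe sets) and 0 to 2 with 1 array left out, and at day 7 0 to 1. The segment and background contrasts use all arrays, so fitting their groups alone gives no other value. Of the named genes the block changed the call of Agt alone, in the segment contrast and in FL minus F (adjusted p = 0.0181). Quantile normalization and array median subtraction also called Agt in both. Signal limits the single probe sets, since the dimmest of Ace had a within-group SD of 1.24.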
